A study of Mus musculus with 3 samples.

Results

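The Wnt set described here held 53 of the 19070 features counted in each library: 24 genes listed by symbol, and every feature whose symbol is Wnt or Fzd followed by a number. By role these were 19 Wnt ligands, 4 R-spondins, 10 Frizzled receptors, 2 Lrp co-receptors, 3 R-spondin receptors of the Lgr family, 5 genes for β-catenin and its DNA-binding partners, 9 secreted inhibitors and 1 target gene, Axin2. The cells came from dorsal skin wounds of female C57BL/6J mice, wounded at postnatal day 50 with a splinted excision of 5 mm through the whole skin and taken on day 5 with a 2 mm rim. In the AN-GelMA group the wound received 20 µL of a gelatin methacryloyl hydrogel (GelMA) loaded with apoptotic neutrophils, set under ultraviolet light for 1 min. In the GelMA group it received the same gel without cells, and in the untreated wound, labelled Sham, no gel. Each group is 1 library, the sources do not say how many mice it came from, and the files of the AN-GelMA library also carry the word Heat, with no explanation.

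Wnt proteins are secreted lipid-modified ligands that bind Frizzled receptors and the co-receptors Lrp5 and Lrp6. Receptor binding stops the destruction of β-catenin, which then enters the nucleus, joins the Lef and Tcf proteins on DNA and switches on targets such as Axin2. R-spondins bind Lgr receptors and keep Frizzled proteins on the cell surface, while Sfrp proteins and Wif1 bind Wnts, Dkk proteins block Lrp5 and Lrp6, and Notum removes the lipid from Wnts. In skin this signal is best known from the hair follicle, where the dermal papilla, a small cluster of mesenchymal cells, instructs the epithelial matrix above it to build hair, and it also acts in wound fibroblasts.

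The AN-GelMA, GelMA and untreated wound libraries held 9094, 10687 and 5721 cells after filters, 25502 in all, with medians of 1134, 1485 and 1125 unique molecular identifiers (UMIs, counted transcripts) per barcode before them. Pairs of libraries shared between 94 and 135 cell barcode sequences. Cell classes were set by marker genes that are not members, and names such as "wound fibroblasts" mean cells like that class. Levels are CPM, the UMIs of a gene over all UMIs of a class, scaled to the same total everywhere, and brackets give exact 95% intervals that cover counting error only. Probe numbers differ between genes, so CPM is compared for 1 gene between classes or libraries, not between genes. With 1 library per group no test between groups is possible. A member was called higher or lower where the CPM of one library was at least 1.5 times that of the other and both together had at least 20 UMIs, in classes of at least 50 cells in both libraries. The 3 comparisons share libraries and are not independent.

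The libraries differed widely in their number of follicle cells. Growing follicle cells, made up of hair matrix and cortex, inner root sheath and hair shaft, were 20 of the AN-GelMA cells, 2686 of the GelMA cells and 147 of the untreated wound cells, or 0.220%, 25.1% and 2.57%. Outer root sheath cells numbered 86, 1461 and 139, and dermal papilla cells 12, 66 and 24. Wound fibroblasts numbered 2020, 637 and 1070, and interfollicular keratinocytes, the epidermis between follicles, 3024, 2307 and 1650. Transcripts of growing hair were also counted in classes that do not make hair: the 21 measured growing follicle markers summed to 65.2 CPM in AN-GelMA macrophages, 1244 CPM in GelMA macrophages and 169 CPM in untreated wound macrophages. The same sum in wound fibroblasts was 87.3 CPM in AN-GelMA, 1341 CPM in GelMA and 180 CPM in the untreated wound.

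Pooled over the libraries, 16 of the 52 members with at least 20 UMIs had their highest CPM in the dermal papilla, 8 in the outer root sheath, 8 in the growing follicle and 4 in wound fibroblasts. The share of all features highest in each class was not computed. Counts of members by highest class, here and below, thus have no background beside them. The papilla was the smallest class, with 102 cells, where a few UMIs can give the highest CPM. The papilla genes were all 4 R-spondins, Wnt5a, Wnt5b, Wnt16, Fzd8, Lgr4, Lef1, Tcf7l1, Dkk2, Notum, Sfrp1, Wif1 and Axin2. For Axin2, Lgr4 and Tcf7l1 the papilla was at most 1.16 times the next class, and Fzd8 rested on 1 papilla UMI. Wnt16 rested on 4 papilla UMIs, at 1.30 times wound fibroblasts, and Wnt5b on 13. The intervals of both overlapped those of the next class. Taken library by library, 8 members kept their highest class in all 3: Fzd7, Lgr5, Lrp6 and Tcf7l1 in the outer root sheath, Wnt2b and Wnt9a in wound fibroblasts, Ctnnb1 in blood endothelial cells and Tcf7 in T, NK or innate lymphoid cells. Only classes of at least 50 cells were eligible in a library, so the papilla entered in GelMA alone, and a member highest in the papilla of the other libraries is not seen in this count. Clusters without a class were left out of the pooled ranking and of this one. A cluster led by Krt15 and Il31ra, described below, had a higher Lgr5 CPM than the outer root sheath in each library. The Lgr5 intervals of that cluster and the outer root sheath overlapped in AN-GelMA and GelMA.

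**Figure D1:**
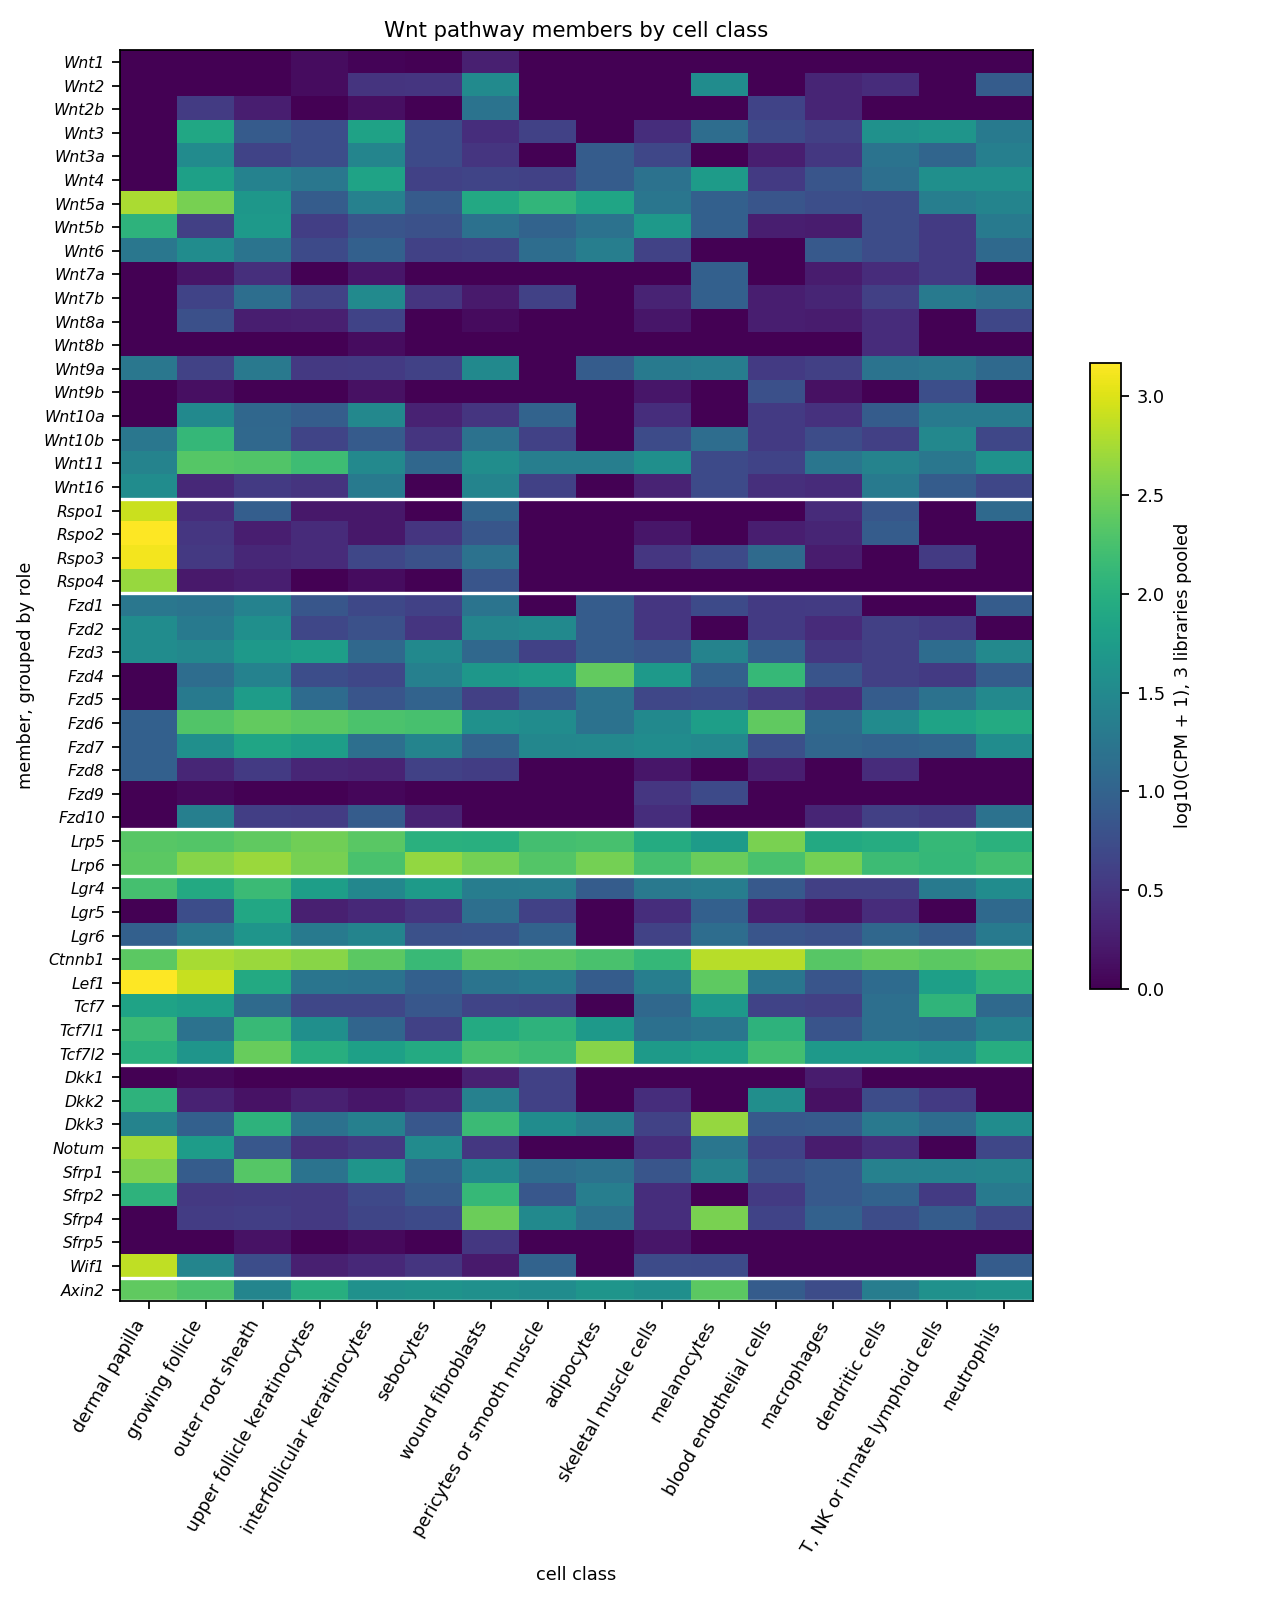
Level of each of the 53 members (rows, grouped by role with white lines between roles) in 16 cell classes (columns), as log10(CPM + 1) of the UMIs of the 3 libraries pooled. The R-spondins stand out in the dermal papilla column, where Rspo2 reached 1451 CPM. Sfrp4 was at 340.3 CPM in melanocytes and 288 CPM in wound fibroblasts.

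The 102 dermal papilla cells, 0.400% of all cells, held 43.8% to 63.0% of the UMIs of each R-spondin. Rspo2 had 172 UMIs there, or 1451 CPM (1242 to 1685), against 7.48 CPM (2.43 to 17.5) in dendritic cells, the next highest class. Rspo3 reached 1299 CPM (1102 to 1522) in the papilla and 14.8 CPM (11.4 to 18.9) in wound fibroblasts. Rspo1 was at 818 CPM (664 to 998) and Rspo4 at 481 CPM (364 to 623), 73.5 and 81.3 times the next class. These 4 secreted proteins amplify Wnt signals through Lgr4, Lgr5 and Lgr6. Of those receptors the papilla itself had 20 UMIs of Lgr4, 0 of Lgr5 and 1 of Lgr6.

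Of the 9 secreted inhibitors, 4 had their highest pooled CPM in the papilla. Wif1, which binds Wnts outside the cell, was at 734 CPM (588 to 906) in the papilla, 27.8 times its level in the growing follicle. Notum was at 532 CPM (409 to 680), 9.64 times the growing follicle. Sfrp1 was at 363 CPM (263 to 489), against 216 CPM (198 to 236) in the outer root sheath. Dkk2 had 13 UMIs (109.7 CPM) there. Of the others, Sfrp2 had 109.7 CPM in the papilla and 132 CPM in wound fibroblasts, Dkk3 had 25.3 CPM and 466 CPM in melanocytes, and Dkk1, Sfrp4 and Sfrp5 had 0 UMIs in the papilla. Among ligands Wnt5a, which often signals without β-catenin, had 582 CPM (453 to 737). Wnt3, Wnt3a, Wnt4, Wnt7b and Wnt10a, all epithelial ligands here, had 0 UMIs each, where 3 UMIs would be 25.3 CPM. Lef1, the DNA-binding partner of β-catenin, reached 1477 CPM (1266 to 1712), 1.83 times the growing follicle. The cells carried markers of their class, whose summed level was 5425 CPM in AN-GelMA, 7777 CPM in GelMA and 5835 CPM in the untreated wound.

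By library the papilla numbers are small, and no ratio was formed. Rspo1 had 10, 74 and 13 UMIs in the AN-GelMA, GelMA and untreated wound papilla, or 889, 830.5 and 716 CPM. Rspo2 had 12, 144 and 16 UMIs, or 1067, 1616 and 881 CPM. Lef1 had 13, 134 and 28 UMIs, or 1156, 1504 and 1541 CPM. The intervals of the 3 libraries overlapped for each of those genes. Rspo3 had 15, 133 and 6 UMIs, or 1334, 1493 and 330.3 CPM, and the interval of the untreated wound (121 to 719) lay below the others. Rspo4 had 0, 56 and 1 UMIs, Sfrp1 0, 42 and 1, and Axin2 0, 28 and 1, so nearly all papilla counts of these 3 came from GelMA. With 11244 UMIs in all in the AN-GelMA papilla, 1 UMI is 88.9 CPM there.

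**Figure D2:**
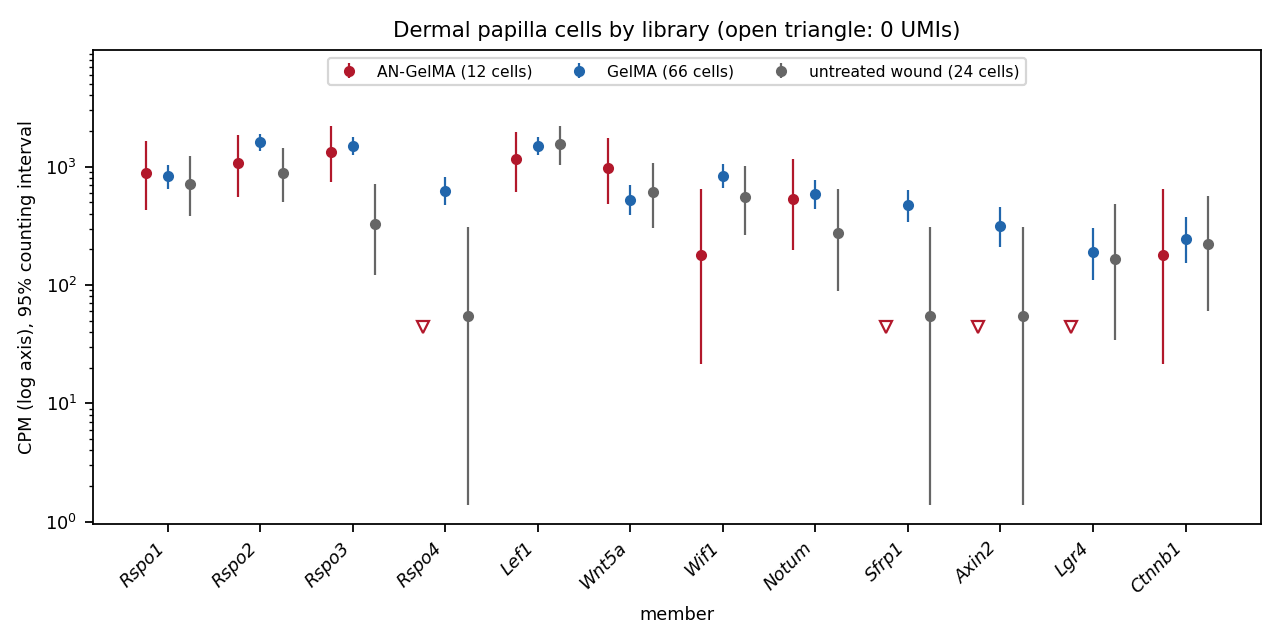
CPM of 12 members in dermal papilla cells (log axis) for AN-GelMA, GelMA and the untreated wound, with exact 95% counting intervals; open triangles mark 0 UMIs and are drawn below the CPM of 1 UMI. Rspo1, Rspo2 and Lef1 sit at 716 to 1616 CPM in all 3 libraries, while Rspo4, Sfrp1 and Axin2 have 0 or 1 UMI outside GelMA.

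In the growing follicle the members divided by compartment. The GelMA library, with 1006 hair matrix and cortex cells, 1396 inner root sheath cells and 284 hair shaft cells, gives their levels. Lef1 had 1259 CPM (1212 to 1306) in matrix and cortex, 1358 CPM (1272 to 1449) in the shaft and 308 CPM (288 to 329) in the inner root sheath. Tcf7, a sister factor of Lef1, had 309 CPM (268 to 353) in the shaft, 32.8 CPM (25.7 to 41.3) in matrix and cortex and 18.8 CPM (14.0 to 24.5) in the inner root sheath. Axin2, the feedback inhibitor used as a reporter of β-catenin activity, had 263 CPM (242 to 285) in matrix and cortex, 244 CPM (208 to 284) in the shaft and 129 CPM (116 to 143) in the inner root sheath. Lef1 and Axin2 were thus higher in the hair-forming compartments than in the sheath, beyond counting error.

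The ligands had their own places. Wnt10b, a ligand of the growing matrix, had 271 CPM (249.7 to 293) in matrix and cortex, 38.6 CPM (31.7 to 46.5) in the inner root sheath and 17.7 CPM (9.16 to 31.0) in the shaft. Wnt10a had 66.6 CPM (56.3 to 78.2) in matrix and cortex, 8.14 CPM in the inner root sheath and 14.8 CPM in the shaft. Wnt3 was highest in the shaft at 281 CPM (242 to 323), with 108 CPM (94.3 to 122) in matrix and cortex and 7.08 CPM (4.32 to 10.9) in the inner root sheath. Wnt5a and Wnt11, which often act without β-catenin, were higher in the inner root sheath than in the other compartments. Wnt5a had 455 CPM (430 to 481) in the inner root sheath, 257 CPM (236 to 279) in matrix and cortex and 34.0 CPM (21.5 to 51.0) in the shaft. Wnt11 had 374 CPM (352 to 398) in the inner root sheath, 128 CPM (103 to 158) in the shaft and 39.6 CPM (31.8 to 48.8) in matrix and cortex. Notum had 140.3 CPM (113 to 171) in the shaft, 91.4 CPM (79.2 to 105) in matrix and cortex and 3.89 CPM (1.94 to 6.96) in the inner root sheath. A cluster without a class, led by Myb and Mycn and holding 10, 174 and 37 cells of AN-GelMA, GelMA and the untreated wound, had 778 CPM (661 to 909) of Lef1 and 396 CPM (314 to 493) of Wnt5a in GelMA.

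**Figure D3:**
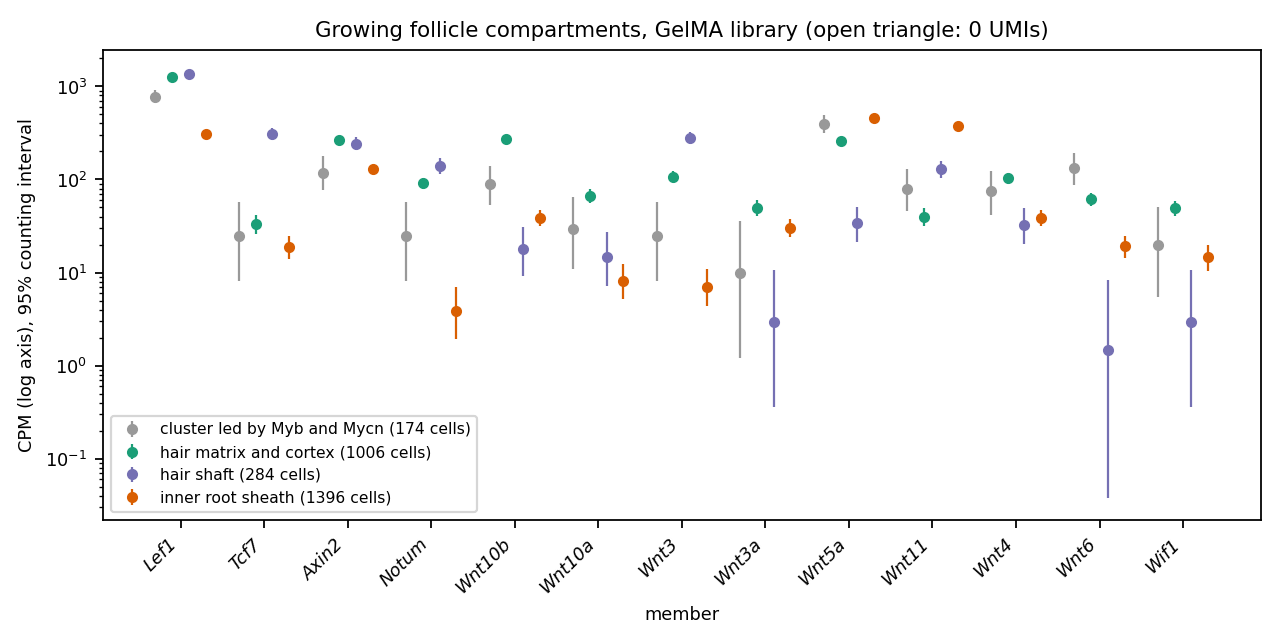
CPM of 13 members in the compartments of the growing follicle in the GelMA library (log axis), with exact 95% counting intervals. Wnt10b and Wnt10a peak in matrix and cortex, Wnt3, Tcf7 and Notum in the hair shaft, and Wnt5a and Wnt11 in the inner root sheath.

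To show the promoter context of the reporter gene and of the members that marked opposite compartments, the 250 bases before an annotated start are printed for Axin2, Lef1 and Wnt11, from RefSeq on GRCm38.p6, which is not the build of the deposited counts (GRCm39, mm39). The windows were searched on both strands for CTTTGAA or CTTTGAT or CTTTGTA or CTTTGTT, letters that Lef and Tcf proteins are known to prefer, and a stretch can match only 1 of these 4. A match is in capitals, read as it stands on the printed strand, so that one on the other strand shows as its reverse complement. The Axin2 window lies upstream of the gene at chr11:108920099-108920348 on the plus strand and has no match. Lef1 has 4 annotated starts in the table, and the window printed, at chr3:131156044-131156293 on the plus strand in an intron of the longer transcripts, is the only one of the 4 with a match. The Wnt11 window lies upstream of the gene at chr7:98834862-98835111 on the plus strand and has a match 51 bases before the start.
Axin2: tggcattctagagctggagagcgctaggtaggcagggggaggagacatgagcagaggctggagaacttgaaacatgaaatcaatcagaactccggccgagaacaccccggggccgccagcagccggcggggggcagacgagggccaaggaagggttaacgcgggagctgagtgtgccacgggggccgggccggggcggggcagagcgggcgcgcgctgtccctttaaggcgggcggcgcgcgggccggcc
Lef1: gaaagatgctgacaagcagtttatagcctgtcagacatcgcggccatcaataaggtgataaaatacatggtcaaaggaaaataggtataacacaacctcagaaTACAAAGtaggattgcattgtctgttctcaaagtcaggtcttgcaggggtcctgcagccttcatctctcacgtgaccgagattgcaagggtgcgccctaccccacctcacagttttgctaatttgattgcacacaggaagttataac
Wnt11: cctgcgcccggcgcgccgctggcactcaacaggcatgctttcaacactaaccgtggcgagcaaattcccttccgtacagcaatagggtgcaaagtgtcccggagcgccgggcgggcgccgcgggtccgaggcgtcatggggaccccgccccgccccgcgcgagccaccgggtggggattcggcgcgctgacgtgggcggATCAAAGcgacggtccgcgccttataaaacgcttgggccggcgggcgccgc
Of the 53 members, 36 had a window in the table, and 6 of their 45 windows held a match, or 13.3%. Over all 32851 windows of that length the share was 14.8%. The other windows with a match belonged to Fzd7, Wnt5b, Dkk1 and Tcf7l2. A match describes letters, not binding.

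GelMA against the untreated wound was the only comparison with at least 50 growing follicle cells on both sides. Of 33 measured members 16 were called, or 48.5%, against 38.5% of all measured features. There were 10 higher in GelMA, where 20.7% of features were, and 6 lower, where 17.8% were. The median log2 ratio was 0.14 for members and -0.08 for all measured features. Lef1 was not called, with 4588 UMIs (801 CPM) in GelMA and 206 UMIs (976 CPM) in the untreated wound. Ctnnb1, the gene for β-catenin, had 567 CPM in GelMA and 587 CPM in the untreated wound. Wnt5a had 328 CPM (314 to 344) in GelMA and 246 CPM (184 to 323) in the untreated wound, and Wnt10b 126 CPM and 147 CPM. Tcf7 had 335 UMIs (58.5 CPM) in GelMA and 10 UMIs (47.4 CPM) in the untreated wound, and Lgr5, Sfrp2 and Rspo3 had 12 to 27 UMIs in GelMA and 1 in the untreated wound.

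The largest called differences in the growing follicle were ligands and receptors that had few UMIs in the untreated wound. Wnt3 had 449 UMIs (78.4 CPM) in GelMA and 2 UMIs (9.47 CPM) in the untreated wound, a log2 ratio of 3.05 (1.19 to 6.10). Within hair matrix and cortex alone Wnt3 had 239 UMIs (108 CPM) in GelMA and 1 UMI (8.74 CPM) in the untreated wound. Shaft cells numbered 284 in GelMA and 5 in the untreated wound, and 1 of the matrix and cortex clusters had 177 cells in GelMA and 0 in the untreated wound. The part of these differences in make-up was not tested. Wnt3a had 197 UMIs in GelMA and 1 in the untreated wound, a log2 ratio of 2.86 (0.37 to 8.17). For Fzd10, Fzd5, Wif1, Fzd4, Wnt10a, Fzd1 and Fzd3, with 1 to 4 UMIs each in the untreated wound, the intervals reached 0. Axin2 had 1114 UMIs (195 CPM) in GelMA and 26 UMIs (123 CPM) in the untreated wound, a log2 ratio of 0.66 (0.10 to 1.28). On the lower side Tcf7l2 had 41.2 CPM in GelMA and 99.5 CPM in the untreated wound, at -1.27 (-1.92 to -0.55), and Lrp6 390 CPM and 592 CPM, at -0.60 (-0.86 to -0.33). Sfrp1, Dkk3, Lgr6 and Notum were also lower, with intervals that reached 0. Dermal papilla markers in growing follicle cells summed to 47.3 CPM in GelMA and 194 CPM in the untreated wound, and their part in these ratios was not tested.

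R-spondin receptors marked another part of the follicle. Lgr5, known as a marker of follicle stem cells, had 49.2% of its UMIs in the outer root sheath, at 93.0 CPM (48.0 to 162) in AN-GelMA, 77.4 CPM (66.0 to 90.1) in GelMA and 88.5 CPM (47.1 to 151) in the untreated wound, with intervals that overlapped. Lgr6, known from stem cells of the upper follicle and epidermis, had 32 UMIs (248 CPM) in AN-GelMA outer root sheath cells, 53 UMIs (24.8 CPM) in GelMA and 21 UMIs (143 CPM) in the untreated wound. The log2 ratio was 3.32 (2.64 to 3.98) for AN-GelMA over GelMA and -2.52 (-3.28 to -1.72) for GelMA over the untreated wound. Lgr4, the widely used R-spondin receptor, had 372 CPM (274 to 493) in AN-GelMA, 131 CPM (116 to 147) in GelMA and 157 CPM (99.2 to 235) in the untreated wound. Over all members measured in this class, 17 of 29 were called in AN-GelMA over GelMA, where 41.7% of features were, 14 of 29 in GelMA over the untreated wound (41.0%) and 5 of 14 in AN-GelMA over the untreated wound (27.9%). In percent these are 58.6%, 48.3% and 35.7%, from few members.

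Other members of the outer root sheath also differed. Sfrp1 had 434 CPM in AN-GelMA, 201 CPM in GelMA and 252 CPM in the untreated wound, a log2 ratio of 1.11 (0.68 to 1.52) for AN-GelMA over GelMA. Tcf7l2 had 604 CPM in AN-GelMA, 237 CPM in GelMA and 469.5 CPM in the untreated wound. Wnt11 was the other way round, at 77.5 CPM (37.2 to 142) in AN-GelMA, 219 CPM (200 to 240) in GelMA and 81.7 CPM (42.2 to 143) in the untreated wound. Fzd6, a Frizzled of the epidermis, had 101 CPM in AN-GelMA, 272 CPM in GelMA and 170.1 CPM in the untreated wound. The summed growing follicle markers in this class were 697 CPM in AN-GelMA, 2635 CPM in GelMA and 544 CPM in the untreated wound, and their part in these ratios was not tested.

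A cluster without a class, led by Krt15 and Il31ra, held 74, 72 and 55 cells of AN-GelMA, GelMA and the untreated wound and carried all 3 Lgr receptors. Lgr6 had 505 CPM (357 to 693) in AN-GelMA, 94.0 CPM (34.5 to 205) in GelMA and 389 CPM (223 to 632) in the untreated wound. Lgr5 had 239 CPM (142 to 378), 110 CPM (44.1 to 226) and 316 CPM (168 to 541) in the same libraries. Dkk3, a divergent member of the Dkk family, had 744 CPM (562 to 966) in AN-GelMA, 125 CPM (54.1 to 247) in GelMA and 414 CPM (241 to 662) in the untreated wound. In this cluster too Lgr6 and Dkk3 were lowest in GelMA, each from 8 UMIs or fewer.

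Wound fibroblasts were the main source of the Sfrp inhibitors 2 and 4. They held 83.8% of Sfrp4 and 76.6% of Sfrp2 UMIs, 66.4% of Wnt2, 54.0% of Wnt2b and 49.5% of Dkk2 UMIs. Against GelMA, AN-GelMA fibroblasts had 16 of 32 measured members called, or 50.0%, where 28.0% of all measured features were. There were 5 higher, where 10.2% of features were, and 11 lower, where 17.8% were. GelMA against the untreated wound gave 16 of 29, or 55.2%, where 26.3% of features were called, with 11 higher (16.1% of features) and 5 lower (10.1%). AN-GelMA against the untreated wound gave 2 of 31, Fzd1 and Rspo2, both higher, or 6.45%, where 11.3% of features were called and 4.91% were higher. The median log2 ratio of members was -0.37 for AN-GelMA over GelMA, 0.27 for GelMA over the untreated wound and 0.08 for AN-GelMA over the untreated wound, beside -0.10, 0.08 and -0.01 for all measured features.

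Sfrp4, Sfrp2 and Wnt2 were lower in GelMA fibroblasts than in both other libraries. Sfrp4 had 753 UMIs (310.2 CPM) in AN-GelMA fibroblasts, 116 UMIs (171 CPM) in GelMA and 394 UMIs (306 CPM) in the untreated wound. Its log2 ratio was 0.86 (0.58 to 1.16) for AN-GelMA over GelMA and -0.84 (-1.16 to -0.54) for GelMA over the untreated wound. Sfrp2 had 364 UMIs (150.0 CPM) in AN-GelMA, 41 UMIs (60.3 CPM) in GelMA and 177 UMIs (138 CPM) in the untreated wound, at 1.31 (0.85 to 1.82) and -1.19 (-1.72 to -0.69). Wnt2, a ligand of fibroblasts, had 98 UMIs (40.4 CPM), 5 UMIs (7.36 CPM) and 37 UMIs (28.8 CPM) in those libraries, at 2.46 (1.18 to 4.11) and -1.97 (-3.67 to -0.62). Wnt16 was in the same direction, with 27.2 CPM in AN-GelMA, 16.2 CPM in GelMA and 28.8 CPM in the untreated wound, but its intervals reached 0. Wnt2b was called in GelMA over the untreated wound alone, at -0.92 (-2.37 to 0.33). Rspo2 had 21 UMIs in AN-GelMA, 1 in GelMA and 5 in the untreated wound, with intervals that reached 0. Dkk2 and Dkk3 were not called, at 25.1, 20.6 and 22.5 CPM for Dkk2 and 131, 150.1 and 160.2 CPM for Dkk3.

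**Figure D4:**
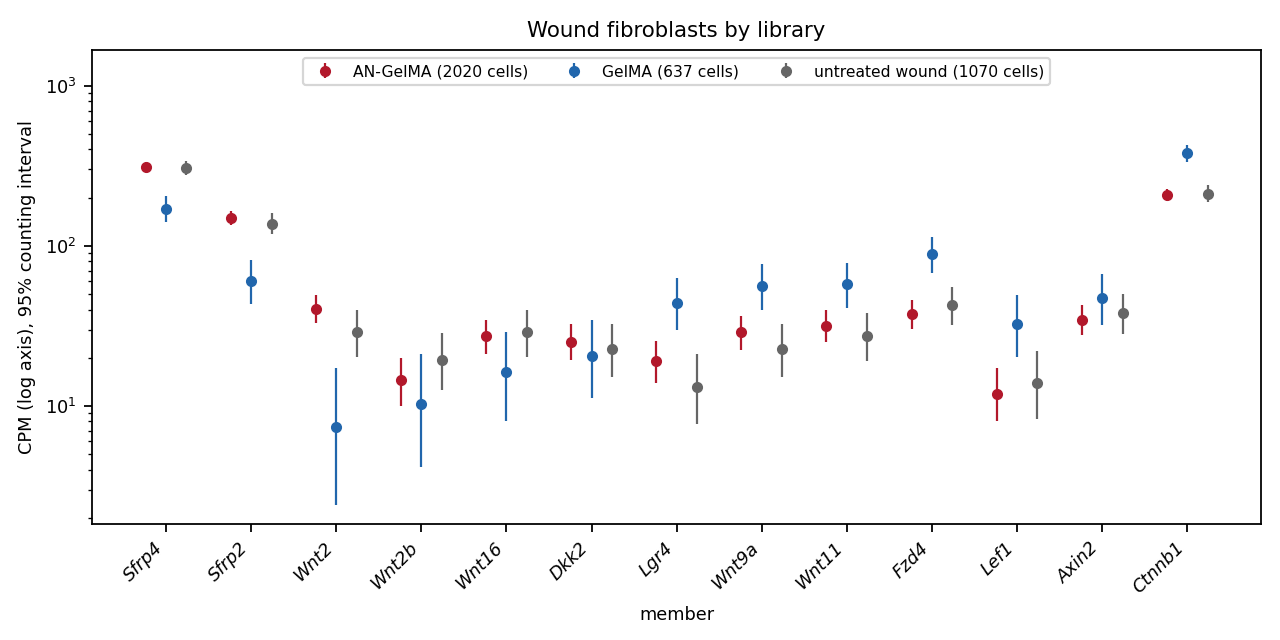
CPM of 13 members in wound fibroblasts (log axis) for AN-GelMA, GelMA and the untreated wound, with exact 95% counting intervals. Sfrp4, Sfrp2 and Wnt2 are lowest in GelMA, and Lgr4, Wnt9a, Wnt11, Fzd4, Lef1 and Ctnnb1 highest in GelMA, with AN-GelMA and the untreated wound close to each other.

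Lgr4, Fzd4, Ctnnb1, Wnt9a and Wnt11 were higher in GelMA fibroblasts than in both other libraries. Lgr4 had 46 UMIs (18.9 CPM) in AN-GelMA, 30 UMIs (44.2 CPM) in GelMA and 17 UMIs (13.2 CPM) in the untreated wound, at -1.22 (-1.91 to -0.51) for AN-GelMA over GelMA and 1.74 (0.84 to 2.69) for GelMA over the untreated wound. Fzd4, a Frizzled that also serves the ligand Norrin, had 37.5, 88.3 and 42.8 CPM in AN-GelMA, GelMA and the untreated wound, at -1.24 (-1.72 to -0.74) and 1.05 (0.49 to 1.60). Ctnnb1 had 209, 380 and 211 CPM, at -0.86 (-1.08 to -0.64) and 0.84 (0.59 to 1.10). Wnt9a had 28.8, 55.9 and 22.5 CPM, at -0.96 (-1.55 to -0.35) and 1.31 (0.57 to 2.06). Wnt11 had 31.7, 57.4 and 27.2 CPM, at -0.86 (-1.43 to -0.26) and 1.08 (0.38 to 1.78). Fzd2, Fzd3, Wnt5b and Rspo1 were called in both comparisons that include GelMA and in the same direction as Lgr4, Fzd1 in GelMA over the untreated wound, and Rspo4 in AN-GelMA over GelMA. Of these 6, only Fzd2 in GelMA over the untreated wound, at 0.87 (0.05 to 1.68), had an interval clear of 0.

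Axin2, Lef1 and most other readouts of the pathway had few UMIs in fibroblasts. Axin2 had 84 UMIs (34.6 CPM), 32 UMIs (47.1 CPM) and 49 UMIs (38.1 CPM) in AN-GelMA, GelMA and the untreated wound and was not called in any of the 3 comparisons. Over the libraries pooled, Axin2 was uneven between fibroblast clusters. It had 80.5 CPM (66.2 to 96.9) in the cluster led by Postn and Tnn and 22.2 CPM (16.3 to 29.5) in that led by Pi16 and Tnxb. In the cluster led by Nos2 and Tnfaip6 it had 7.84 CPM (3.15 to 16.1). Within the cluster led by Pi16 and Tnxb, Axin2 was called lower in AN-GelMA (20 UMIs) than in GelMA (14 UMIs), at -0.83 (-1.89 to 0.27). Lef1 had 29 UMIs (11.9 CPM), 22 UMIs (32.4 CPM) and 18 UMIs (14.0 CPM), at -1.44 (-2.29 to -0.57) for AN-GelMA over GelMA and 1.21 (0.24 to 2.19) for GelMA over the untreated wound. In GelMA, Lef1 had 24.1 UMIs per 1000 growing follicle marker UMIs in fibroblasts, 23.1 in macrophages, 20.1 in skeletal muscle cells, 31.1 in blood endothelial cells and 20.7 in the growing follicle itself. The same ratio was 137 in AN-GelMA fibroblasts and 77.3 in the AN-GelMA growing follicle, and 77.9 and 39.8 in those classes of the untreated wound. Per 1000 marker UMIs in GelMA, Ctnnb1 had 283 UMIs in fibroblasts and 14.7 in the growing follicle, and Wnt11 42.8 and 5.57. The part of hair transcripts in these ratios was not tested. Tcf7, Notum and Wif1 had 1 to 6 UMIs each per library, Rspo3 had 34, 10 and 21, Lgr5 37, 7 and 14, and Lgr6 6, 10 and 7.

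**Figure D5:**
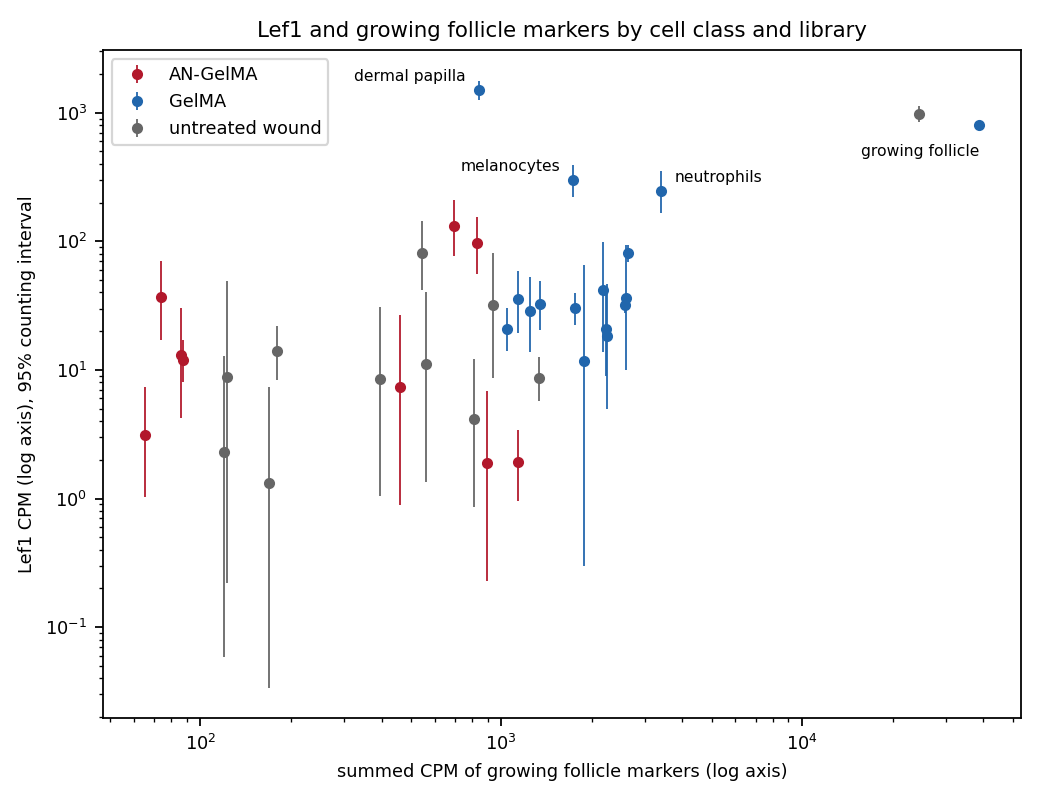
Lef1 CPM (vertical, log axis, exact 95% counting intervals) against the summed CPM of growing follicle markers (horizontal, log axis) for classes of at least 50 cells, 1 point per class and library, in AN-GelMA, GelMA and the untreated wound. Within each class that does not make hair and is shown for several libraries, the GelMA point lies furthest to the right, and the GelMA dermal papilla lies above the other points at 1504 CPM.

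The fibroblasts fell into clusters led by Pi16 and Tnxb, by Postn and Tnn, and by Nos2 and Tnfaip6. The first held 1079 of 2020 AN-GelMA, 455 of 637 GelMA and 533 of 1070 untreated wound fibroblasts and was the largest in each library, while the last held 419, 26 and 206. Within the Pi16 and Tnxb cluster alone Sfrp4 had 600.0 CPM in AN-GelMA, 257 CPM in GelMA and 586 CPM in the untreated wound. Sfrp2 had 226 CPM, 66.6 CPM and 222 CPM, at 1.77 (1.21 to 2.37) for AN-GelMA over GelMA and -1.74 (-2.37 to -1.15) for GelMA over the untreated wound. Wnt2 was at 2.70 (1.27 to 4.62) and -2.30 (-4.28 to -0.77). Wnt16, Ctnnb1, Wnt9a, Wnt11 and Fzd4 kept their direction there, and Wnt16 had intervals clear of 0 in both comparisons with GelMA. In that cluster 15 of 24 members were called in AN-GelMA over GelMA (31.3% of features), 12 of 21 in GelMA over the untreated wound (29.7%) and 6 of 26 in AN-GelMA over the untreated wound (16.7%). The log2 ratios of Sfrp4, Sfrp2 and Wnt2 were thus larger in size without the other fibroblast clusters. For Sfrp2 and Wnt2 the intervals overlapped those of all fibroblasts. The Postn and Tnn cluster held 522, 156 and 331 cells of AN-GelMA, GelMA and the untreated wound. In the comparisons that include GelMA, none of Sfrp4, Sfrp2, Wnt2, Lgr4, Fzd4 and Wnt9a was called there. Ctnnb1 was called there in AN-GelMA over GelMA and Wnt11 in GelMA over the untreated wound, both highest in GelMA.

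Interfollicular keratinocytes, 27.4% of all cells, held most of the UMIs of 6 Wnt ligands. They held 79.2% of Wnt7b, 62.6% of Wnt3, 60.5% of Wnt16, 59.5% of Wnt4, 57.9% of Wnt10a and 56.9% of Wnt3a UMIs. The growing follicle held the largest share of Wnt10b (70.6%), Wnt5a (62.5%), Wnt11 (40.9%) and Wnt6 (40.4%). In pooled CPM, Wnt3, Wnt3a and Wnt10a were highest in the growing follicle, at 75.6, 33.1 and 31.1 CPM. Wnt16 had 25.95 CPM pooled in wound fibroblasts, above its levels in keratinocytes given here. Over the whole class, made up of basal, suprabasal and injury clusters, the 6 ligands held mostly by keratinocytes differed little between libraries. Wnt3 had 65.7 CPM (59.2 to 72.7) in AN-GelMA, 66.2 CPM (59.8 to 73.1) in GelMA and 70.4 CPM (61.6 to 80.2) in the untreated wound. Wnt4 had 74.6, 65.2 and 59.6 CPM, Wnt7b 29.0, 37.0 and 26.6 CPM, Wnt10a 29.4, 30.7 and 26.6 CPM and Wnt16 16.9, 21.6 and 18.8 CPM in AN-GelMA, GelMA and the untreated wound. Wnt3a alone of these 6 was called over the whole class. It was at 32.0 CPM in AN-GelMA and 19.9 CPM in GelMA, a log2 ratio of 0.68 (0.34 to 1.03). In injury clusters Wnt3a and Wnt3 were called higher, and Wnt16 and Wnt10a lower, in AN-GelMA than in GelMA. Suprabasal clusters had Wnt16 lower in AN-GelMA than in GelMA. They had Wnt16 and Wnt10a higher, and Wnt3a lower, in GelMA than in the untreated wound. For AN-GelMA over the untreated wound, Wnt3a was higher in injury clusters, and Wnt3a and Wnt3 were lower in suprabasal ones. Basal clusters had Wnt7b and Wnt10a higher in GelMA than in the untreated wound.

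Over all members in interfollicular keratinocytes, 16 of 38 were called in AN-GelMA over GelMA, or 42.1% where 24.0% of features were, with 7 higher (8.98% of features) and 9 lower (15.1%). GelMA over the untreated wound gave 15 of 37, or 40.5% where 22.6% of features were, with 8 higher (13.0%) and 7 lower (9.64%). AN-GelMA over the untreated wound gave 3 of 35, Lef1, Fzd5 and Fzd10, all lower, or 8.57%, near the 7.73% of all measured features; 5.04% of features were lower. In the basal clusters alone, 7 of 30 members were called in AN-GelMA over GelMA, or 23.3% where 22.1% of features were. The same clusters gave 9 of 29 in GelMA over the untreated wound, or 31.0% where 22.8% of features were. In AN-GelMA over GelMA, suprabasal clusters gave 13 of 29, or 44.8%, and injury clusters 15 of 23, or 65.2%. In GelMA over the untreated wound suprabasal clusters gave 12 of 27, or 44.4%, and injury clusters 9 of 21, or 42.9%. The share of all features called in suprabasal and injury clusters is not given, so their counts have no background beside them. Members' median log2 ratios over the whole class were -0.12, 0.20 and -0.07 in these comparisons, beside -0.01, -0.01 and -0.02 for all measured features.

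Lef1 had the largest ratio for AN-GelMA over GelMA and for AN-GelMA over the untreated wound, with 11 UMIs (1.92 CPM) in AN-GelMA, 189 UMIs (31.9 CPM) in GelMA and 28 UMIs (8.65 CPM) in the untreated wound. It was at -4.05 (-5.08 to -3.18) for AN-GelMA over GelMA, 1.88 (1.31 to 2.51) for GelMA over the untreated wound and -2.17 (-3.32 to -1.12) for AN-GelMA over the untreated wound. Growing follicle markers in this class summed to 1139 CPM in AN-GelMA, 2576 CPM in GelMA and 1333 CPM in the untreated wound. In AN-GelMA this class held 6520 UMIs of these markers and the growing follicle 427. The sum in this class may thus hold more than hair transcripts. Lef1 had 12.4 UMIs per 1000 marker UMIs here in GelMA, against 20.7 in the growing follicle. With that limit, the 12.4 and 20.7 cannot be compared as shares of hair transcripts. The part of hair transcripts in the Lef1 ratios was not tested. Counts with growing follicle background taken off, scaled by these markers, are given with the alternatives. Notum had 5 UMIs in AN-GelMA, 28 in GelMA and 2 in the untreated wound, at -2.44 (-4.17 to -1.04) and 2.94 (0.95 to 6.05) in the comparisons that include GelMA. Axin2 had 161 UMIs (28.1 CPM) in AN-GelMA, 311 UMIs (52.5 CPM) in GelMA and 117 UMIs (36.1 CPM) in the untreated wound, at -0.90 (-1.18 to -0.62) for AN-GelMA over GelMA, and at -0.51 (-0.96 to -0.05), not called, in the basal clusters alone. It was not called in the other comparisons. Tcf7 had 20, 25 and 11 UMIs in AN-GelMA, GelMA and the untreated wound and was not called. Lgr5 had 7, 9 and 4 UMIs there and Wif1 3, 15 and 2, both under the minimum of 20 in each comparison.

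Among epidermal receptors Fzd5 had 9 UMIs (1.57 CPM) in AN-GelMA, 63 UMIs (10.6 CPM) in GelMA and 14 UMIs (4.32 CPM) in the untreated wound, at -2.76 (-3.95 to -1.74) for AN-GelMA over GelMA. Fzd10 had 3.14, 12.0 and 6.80 CPM in AN-GelMA, GelMA and the untreated wound, at -1.93 (-2.76 to -1.17) for AN-GelMA over GelMA. Per 1000 growing follicle marker UMIs in GelMA, Fzd5 had 4.13 UMIs in this class and 0.514 in the growing follicle, and Fzd10 4.65 and 0.591. The limit on the marker sum in this class holds here too. Fzd6, Lrp5, Lrp6 and Ctnnb1 were not called, Fzd6 having 197 CPM in AN-GelMA, 170.3 CPM in GelMA and 199 CPM in the untreated wound. Lgr6 had 30.9 CPM in AN-GelMA, 17.9 CPM in GelMA and 30.3 CPM in the untreated wound, at 0.79 (0.43 to 1.15) for AN-GelMA over GelMA and -0.76 (-1.17 to -0.35) for GelMA over the untreated wound. Lgr6 was thus lowest in GelMA in the outer root sheath, the Krt15 and Il31ra cluster and the epidermis taken as a whole. Within the basal, suprabasal or injury clusters alone it was not called in the comparisons that include GelMA. The part of the make-up of the class in its Lgr6 ratios was not tested.

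Inhibitors in the epidermis went in both directions. Dkk3 had 30.1 CPM in AN-GelMA, 11.5 CPM in GelMA and 30.3 CPM in the untreated wound, at 1.39 (0.98 to 1.82) and -1.40 (-1.87 to -0.94) in the comparisons that include GelMA. Sfrp1 had 53.9 CPM (319 UMIs) in GelMA and 29.96 CPM (97 UMIs) in the untreated wound, at 0.85 (0.51 to 1.19). Sfrp4 had 34 UMIs in AN-GelMA and 6 in GelMA, at 2.55 (1.28 to 4.10), and Sfrp2 29 and 15, at 1.00 (0.05 to 2.01). Both are fibroblast genes here, and their levels in this class, 5.94 CPM of Sfrp4 and 5.07 CPM of Sfrp2 in AN-GelMA, compare with 310.2 and 150.0 CPM in AN-GelMA fibroblasts. Wnt8a had 25 UMIs in AN-GelMA, 5 in GelMA and 19 in the untreated wound, at 2.37 (0.96 to 4.11) and -2.80 (-4.57 to -1.33). Tcf7l2 had 47.8 CPM in GelMA and 82.8 CPM in the untreated wound, at -0.79 (-1.04 to -0.55), and Wnt11 41.0 and 23.8 CPM, at 0.79 (0.41 to 1.18), but at -0.05 (-0.77 to 0.67) in the basal clusters alone. The remaining calls were Fzd1, Fzd4, Wnt10b and Rspo3 in AN-GelMA over GelMA and Fzd1, Sfrp2, Rspo3, Wnt6 and Wnt9a in GelMA over the untreated wound, from 6 to 51 UMIs per library.

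Of the 52 members, 13 had their highest pooled CPM outside the follicle, epidermis and fibroblasts: 5 in melanocytes, 3 in blood endothelial cells, 2 in adipocytes and 1 each in pericytes or smooth muscle, in dendritic cells and in T, NK or innate lymphoid cells. Tcf7l2 had 386 CPM in adipocytes and Lrp5 337 CPM in blood endothelial cells. Fzd4 had 255 CPM (178 to 355) in adipocytes over the libraries pooled and 130 CPM in blood endothelial cells, where it stood at 110, 149 and 131 CPM in AN-GelMA, GelMA and the untreated wound. Ctnnb1, whose protein also holds cell junctions together, had 600.2, 782 and 640 CPM in blood endothelial cells in those libraries. Tcf7, known as a T cell factor, was highest in T, NK or innate lymphoid cells, with 16 UMIs (90.7 CPM) in AN-GelMA, 27 UMIs (246 CPM) in GelMA and 6 UMIs (47.6 CPM) in the untreated wound. Melanocytes, the pigment cells, had 589, 399 and 687 CPM of Dkk3 in AN-GelMA, GelMA and the untreated wound, from 32, 84 and 26 cells. Sfrp4 in melanocytes was counted in GelMA alone, with 81 UMIs (483 CPM), against 0 UMIs in AN-GelMA and in the untreated wound, where 3 UMIs would be 68.0 and 115 CPM. Wnt1, Wnt7a, Wnt8b, Dkk1, Fzd9 and Sfrp5 had 12 to 33 UMIs in all cells and no class in which they were prominent.

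A list of 58 other genes of the pathway, for Wnt secretion, receptor turnover, inhibition, signal transduction and targets, was counted in the same way. In fibroblasts 15 of 45 measured were called in AN-GelMA over GelMA, or 33.3% where 28.0% of features were, and 14 of 44 in GelMA over the untreated wound, or 31.8% where 26.3% were. Wls, the carrier that brings Wnts to the cell surface, followed Sfrp2: it had 356 CPM in AN-GelMA, 231 CPM in GelMA and 379 CPM in the untreated wound, at 0.62 (0.37 to 0.88) and -0.71 (-0.98 to -0.45). Ccnd1, a cell cycle gene and β-catenin target, had 18.5, 53.0 and 19.4 CPM, and Nkd2, a feedback inhibitor, 22.7, 73.6 and 29.5 CPM, both highest in GelMA. Growing follicle markers in fibroblasts summed to 87.3, 1341 and 180 CPM in AN-GelMA, GelMA and the untreated wound. Their part in the Ccnd1 and Nkd2 levels was not tested. In interfollicular keratinocytes 14 of 47 were called in AN-GelMA over GelMA, or 29.8% where 24.0% of features were, and 15 of 45 in GelMA over the untreated wound, or 33.3% where 22.6% were. Wls was again lowest in GelMA there, with 218 CPM in AN-GelMA, 135 CPM in GelMA and 213 CPM in the untreated wound. Sostdc1, an inhibitor of Wnt and BMP signals, had 101 CPM in AN-GelMA, 43.7 CPM in GelMA and 80.0 CPM in the untreated wound. In the growing follicle 18 of 47 were called in GelMA over the untreated wound, or 38.3%, the share of all features being 38.5%, among them Bambi, a decoy receptor of the TGF-β family, at 317 CPM in GelMA and 90.0 CPM in the untreated wound.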

How the data were processed

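The tables of UMI counts, 1 per library, were analysed as the authors deposited them: per the file headers they came from Cell Ranger 10.0.0, and per the submitters' processing notes from GRCm39 (mm39). Per the labels' protocols, fixed cells were captured with a probe assay (GEM-X Flex v2). Probe sets and cell calling settings are not given in what was used here. The libraries held 9648, 11449 and 6073 barcodes with 14156692, 21613482 and 8945496 UMIs (AN-GelMA, GelMA, untreated wound).

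Barcodes passed with 400 UMIs, 250 genes and no more than 10% of UMIs from mitochondrial genes. Scrublet called 0 doublets, so the 5% of cells with the highest doublet score were removed (518, 615 and 318). Cells were clustered without the members (scanpy 1.11.5; 2000 variable genes, 30 components, 15 neighbours, Leiden resolution 1) and named from 23 marker sets. The naming rule was set after the cluster tables had been seen, and the members and lists were chosen with earlier results of these data known. UMIs were summed by class and library and scaled to CPM. Intervals are exact Poisson (levels) and conditional binomial (ratios), from scipy 1.17.1; a count of 0 was taken as 3 UMIs. Ratios were tested on simulated data. Any member could be named; up to 10 in each direction past the ratio of 1.5 and a set of readouts (Axin2, Lef1, Tcf7, Lgr5, Lgr6, Notum, Wif1, Sfrp2, Rspo3, Ctnnb1) were to be given with values. There were 8 planned and 4 added alternatives.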

Additional observations from a re-analysis of the deposited data

Results flagged for a closer look

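Some members were higher in one cell class and lower in another under the same comparison, with counting intervals on opposite sides of 0. Each value is a log2 ratio from 1 library per group, and the difference between classes was not tested. Some classes are made of different clusters in different libraries. Of upper follicle keratinocytes, 1 cluster held 601, 267 and 341 cells of AN-GelMA, GelMA and the untreated wound and the other 95, 492 and 54. Of skeletal muscle cells, 1 cluster held 776 GelMA and 115 untreated wound cells and the other 36 and 59. The part of that make-up in the values below was not tested.

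Axin2, the target gene, was at -0.90 in interfollicular keratinocytes and 0.69 in upper follicle keratinocytes for AN-GelMA over GelMA. For GelMA over the untreated wound Axin2 was at 0.66 in the growing follicle and -0.90 in upper follicle keratinocytes. Lgr4, the R-spondin receptor, was at 1.51 in the outer root sheath, -0.76 in upper follicle keratinocytes and -1.22 in wound fibroblasts for AN-GelMA over GelMA. The co-receptor Lrp6 was at -0.60 in the growing follicle and 0.73 in macrophages for GelMA over the untreated wound. Tcf7l2, a DNA-binding partner of β-catenin, was at -0.90 in blood endothelial cells, -1.27 in the growing follicle, -0.79 in interfollicular keratinocytes, -0.98 in the outer root sheath and -1.01 in skeletal muscle cells, but at 1.21 in pericytes or smooth muscle, for GelMA over the untreated wound. Wnt11 was at 0.79 in interfollicular keratinocytes (-0.05 in their basal clusters alone), 1.43 in the outer root sheath, 1.08 in wound fibroblasts and -1.07 in skeletal muscle cells for the same comparison.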

How the results depend on the processing

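No paired analysis was possible because there is 1 library per condition. Of 908 values of single genes under alternatives, 862 stayed within the counting interval, 38 moved and 8 reversed, and the cause was not tested. Among the 862 are values that could not move, because the setting changes only which features are measured. These were 68 values under features from 50 UMIs and 101 under at least 5 UMIs expected in each library. Counts of called members that moved by over 1.5 times follow. The share of all features called was not computed under these settings, so the counts have no background beside them. The basal clusters and the Pi16 and Tnxb cluster are the exception, and their shares are given above. Cells thinned to 500 UMIs: fibroblasts 6 of 16 measured (GelMA over untreated wound) and 4 of 24 (AN-GelMA over untreated wound); interfollicular keratinocytes 7 of 24 (AN-GelMA over GelMA), 8 of 23 (GelMA over untreated wound) and 6 of 22 (AN-GelMA over untreated wound). Features from 50 UMIs: fibroblasts 7 of 16 and 1 of 25; keratinocytes 9 of 28, 9 of 28 and 0 of 24, in the same order. Leak filter: fibroblasts 1 of 26 (AN-GelMA over untreated wound), keratinocytes 8 of 24, 9 of 24 and 1 of 23. At least 1000 UMIs per cell, AN-GelMA over untreated wound: fibroblasts 7 of 30, keratinocytes 5 of 36. Doublet score not used: keratinocytes 6 of 37 in that comparison. Alternatives chosen after seeing the data gave 7 of 30 (AN-GelMA over GelMA) and 9 of 29 (GelMA over untreated wound) for basal keratinocyte clusters alone, 6 of 26 for Pi16 and Tnxb fibroblasts and 9 of 32 for keratinocytes with growing follicle background taken off, the last 2 in AN-GelMA over untreated wound, and 9 of 21 for the growing follicle with at least 5 UMIs expected in each library. Taking off growing follicle background, scaled by its markers, kept counts within 1.5 times in the comparisons that include GelMA, but partly with other members. Keratinocytes had 16 of 34 in AN-GelMA over GelMA (11 as reported) and 14 of 33 in GelMA over untreated wound (12 as reported). Fibroblasts had 17 of 31 (15 as reported) and 16 of 28 (15 as reported), in the same order. Of the 9 in keratinocytes above, 2 were as reported. Members with 1 highest class in all 3 libraries numbered 4 without the doublet score and 4 at resolution 2. In GelMA over the untreated wound, reversed log2 ratios were, in keratinocytes, Wnt6 at 0.0025 (thinned) and Wnt11 at -0.053 (basal clusters). In the growing follicle they were Fzd4 at -0.19 (1000 UMIs) and -1.25 (thinned), Dkk3 at 0.45 (1000 UMIs), Wif1 at -0.19 (doublet score not used) and -0.39 (class per cell), and Wnt10a at -0.57 (thinned). The growing follicle comparisons with AN-GelMA, which held 20 such cells, were not run, nor were their alternatives.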

Other observations

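A cluster of 235 cells led by Duxf3 and Vmn1r91 had UMIs of all 53 members, at 8.56 to 81.3 CPM with a median of 47.1 CPM over the libraries pooled. It was given no class, and none of the comparisons reported above is of its cells. Members with few UMIs, such as Dkk1, took a large share from it: 34.6% of all Dkk1 UMIs were counted there. Another cluster without a class, of 55 cells, was also led by Duxf3 and Vmn1r91 and is not part of these values. All cells without a class together held 18 of the 26 Dkk1 UMIs.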
